A study of Mus musculus with 10 samples.

Results

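Intergenic sites of the glucocorticoid receptor (GR) that were called in skeletal muscle of starved mice and not in fed muscle were described from peak lists of chromatin immunoprecipitation sequencing (ChIP-seq). The sites were chosen by measured values. A GR peak of starved muscle was taken when its midpoint lay in no curated RefSeq transcript and in no promoter (from 1000 bp before a transcription start site, or TSS, to 100 bp after it), and when it shared no base with any GR or LSD1 (lysine-specific demethylase 1) peak of fed muscle. Of the 37783 GR starved peaks, 9187 met this rule and are called gained intergenic sites. The mice were C57BL/6J of 10 weeks by the labels (the text of the study gives another age), either fed or starved for 24 h, and the 10 libraries comprised GR, LSD1, the histone marks H3K9me1 and H3K9me2 (lysine 9 of histone H3 with a single methyl group or with a pair of them) and input, with 1 library per group. No treatment, transgene or deletion is named for these samples, and the sources used here state several mice per condition for the ChIP-seq but not how many animals gave each library. With 1 library per group no replicate error can be given for a difference, and there are no p-values. The intervals are exact 95% binomial (Clopper-Pearson) or rank intervals that cover counting error only. Peak lists carry no expression levels, so the tissue was not checked against marker genes.

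GR is a nuclear receptor that binds DNA when glucocorticoids, the adrenal hormones that rise in starvation, occupy it. It recognises the glucocorticoid response element (GRE), a pair of inverted half-sites on which a GR dimer sits, and it also binds next to or through other factors, among them activator protein 1 (AP-1), CCAAT/enhancer-binding proteins (C/EBP) and forkhead O (FOXO) proteins. Much of its binding lies far from promoters, in enhancers. In muscle, glucocorticoids favour protein breakdown and the release of amino acids, and LSD1 is a demethylase that removes methyl groups from histone H3 tails.

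The sequences of the sites named most often are given first, from the plus strand of GRCm38 (mm10, the build of the peak lists). A GRE was spelled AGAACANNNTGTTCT. Among all 9187 sites, 2 held it without a mismatch, and these are shown because they carry the textbook element. The first lay at chr1:183898182-183898312, in the wide intergenic stretch 136 kb downstream of the TSS of 1700056E22Rik. The second lay at chr9:56133051-56133535, 27.8 kb downstream of the TSS of Tspan3, a tetraspanin gene. Capitals mark the half-sites, which lie at chr1:183898247-183898261 and at chr9:56133194-56133208 together with their spacer.
Site near 1700056E22Rik (chr1:183898187-183898312): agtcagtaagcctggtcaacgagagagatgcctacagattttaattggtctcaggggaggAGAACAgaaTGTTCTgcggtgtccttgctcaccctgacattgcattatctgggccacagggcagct
Site near Tspan3 (chr9:56133134-56133268): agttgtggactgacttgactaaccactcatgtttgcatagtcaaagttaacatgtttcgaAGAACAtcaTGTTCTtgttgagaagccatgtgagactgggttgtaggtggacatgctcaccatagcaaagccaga

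The 4 sites with the highest fold enrichment on chromosomes other than 18 are shown because they are the strongest gained sites. For peaks above 300 bases the central 300 bases are given. Capitals mark matches to the AP-1 (TGANTCA), C/EBP (TTGCNNAA), FOXO (TGTTTAC), GRE half-site (TGTTCT) and myogenic E-box (CAGCTG) motifs on either strand. No capitals in the site near 1700104L18Rik means only that these letters are not in it.
Site near Sik1 (chr17:31842176-31842475): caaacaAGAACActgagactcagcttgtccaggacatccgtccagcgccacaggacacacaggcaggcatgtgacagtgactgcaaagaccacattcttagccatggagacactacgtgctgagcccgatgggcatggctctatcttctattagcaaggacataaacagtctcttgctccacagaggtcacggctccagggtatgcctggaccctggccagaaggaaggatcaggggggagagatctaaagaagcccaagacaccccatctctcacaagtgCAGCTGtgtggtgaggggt
Site near 1700104L18Rik (chr12:54243265-54243525): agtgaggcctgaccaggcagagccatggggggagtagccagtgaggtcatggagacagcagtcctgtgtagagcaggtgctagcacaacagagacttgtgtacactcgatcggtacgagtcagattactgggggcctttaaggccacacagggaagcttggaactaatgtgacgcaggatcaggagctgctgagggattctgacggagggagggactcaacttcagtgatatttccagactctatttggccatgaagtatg
Site near Slc45a1 (chr4:150685085-150685384): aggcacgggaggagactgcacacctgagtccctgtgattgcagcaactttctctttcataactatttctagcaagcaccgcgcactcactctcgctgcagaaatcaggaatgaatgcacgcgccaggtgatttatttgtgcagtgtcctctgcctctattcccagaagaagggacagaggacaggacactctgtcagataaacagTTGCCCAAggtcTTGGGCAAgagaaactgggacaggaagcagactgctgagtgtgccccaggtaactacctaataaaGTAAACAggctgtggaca
Site near Wfikkn2 (chr11:94233392-94233691): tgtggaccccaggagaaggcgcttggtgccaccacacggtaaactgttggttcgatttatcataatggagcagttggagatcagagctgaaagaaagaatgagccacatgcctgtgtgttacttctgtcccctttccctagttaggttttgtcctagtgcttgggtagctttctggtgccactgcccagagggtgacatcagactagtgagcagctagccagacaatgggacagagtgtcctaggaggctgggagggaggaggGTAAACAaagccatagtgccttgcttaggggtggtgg
In the site near Sik1 the capitals are a GRE half-site at base 7 and an E-box at base 282. In the site near Slc45a1 they are C/EBP matches at bases 206 and 218, which face each other across 4 bases, and a FOXO match at base 283. In the site near Wfikkn2 they are a FOXO match at base 264.

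The sites near Scaf8 and Zfand5 stood among the 10 with the highest fold and are shown whole, after their values were seen, because they carry the AP-1 sequence described below. Capitals mark that motif, at base 172 in the site near Scaf8 and at base 54 in the site near Zfand5.
Site near Scaf8 (chr17:3218422-3218698): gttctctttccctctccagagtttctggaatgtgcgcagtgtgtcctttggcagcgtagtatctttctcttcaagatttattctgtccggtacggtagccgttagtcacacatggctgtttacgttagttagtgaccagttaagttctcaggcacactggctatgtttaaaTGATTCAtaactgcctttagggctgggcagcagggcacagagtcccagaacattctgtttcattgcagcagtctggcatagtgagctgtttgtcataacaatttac
Site near Zfand5 (chr19:21227244-21227530): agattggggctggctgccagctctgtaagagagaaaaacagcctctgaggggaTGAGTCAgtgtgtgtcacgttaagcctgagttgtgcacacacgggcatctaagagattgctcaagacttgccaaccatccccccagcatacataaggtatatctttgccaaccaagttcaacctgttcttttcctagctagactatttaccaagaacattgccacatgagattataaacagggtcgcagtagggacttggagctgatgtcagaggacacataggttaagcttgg

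Of the 37783 GR starved peaks, 12159 were intergenic, 19860 lay in gene bodies and 5608 in promoters. A further 156 lay on unplaced contigs, whose names could not be matched to the annotation, and they stayed out of the sites. Of the intergenic peaks 75.6% shared no base with a fed peak. The share was 72.7% in gene bodies, where 14443 peaks were gained, and 32.9% in promoters, where 1843 were. Over the 37627 peaks on chromosomes 1 to 19, X and Y it was 67.7%. Since the rule used this overlap, these shares are a description. The other 2972 intergenic peaks, called below the intergenic sites called in fed muscle, met a GR fed peak in 2441 cases and an LSD1 fed peak in 1955, with both in 1424.

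"Gained" thus says that a peak was called in starved and not in fed muscle. How many reads lay at these places in fed muscle was not analysed here. At the edge of the rule, the gained site nearest to a fed peak lay 3 bases from an LSD1 fed peak (chr2:181675673-181675863, fold 2.76, nearest TSS that of Sox18). The next lay 4 bases from an LSD1 fed peak at chr11:79229177-79229286 (fold 2.73) and at chr7:40202588-40202697 (fold 2.64). Just outside the rule, a peak at chr7:67950528-67950713 (fold 2.81, nearest TSS that of Igf1r) shared 2 bases with a GR fed peak, and peaks at chr2:152898090-152898431 (fold 2.61) and chr19:37020586-37020951 (fold 2.52) shared 3 and 4 bases with an LSD1 fed peak. The folds on the inner and the outer side of the edge were alike.

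The gained intergenic sites were weak and short. Fold enrichment over input, a ratio given by the peak caller, ran from 1.30 to 7.15 with a median of 2.65 (95% CI 2.65 to 2.66) and quartiles of 2.56 and 2.79. The median was 3.05 (95% CI 3.02 to 3.08) in the intergenic sites called in fed muscle, whose highest fold was 19.7, and 2.66 in the gained gene-body sites. A fold of at least 4 was reached by 46 gained intergenic sites and a fold of at least 5 by 11. The median length was 265 bp (95% CI 261 to 271, range 110 to 5327), against 386 bp in the intergenic sites called in fed muscle and 285 bp in the gained gene-body sites.

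Most gained sites stood close to the threshold of the list. The least strict q-value among them was 0.0970. A q-value of 0.01 or less, the limit named in the study's methods, was met by 1835 sites or 20.0%, against 70.9% of the intergenic sites called in fed muscle, 19.5% of the gained gene-body sites and 34.6% of all GR starved peaks on the chromosomes. A q-value of 1e-05 or less was met by 99 sites (1.08%). When the GR starved list was shortened to the number of GR fed peaks, lowest q-values first, 2033 gained intergenic sites were left. Since absence from the fed lists chose the sites, their folds and q-values are a description.

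**Figure D1:**
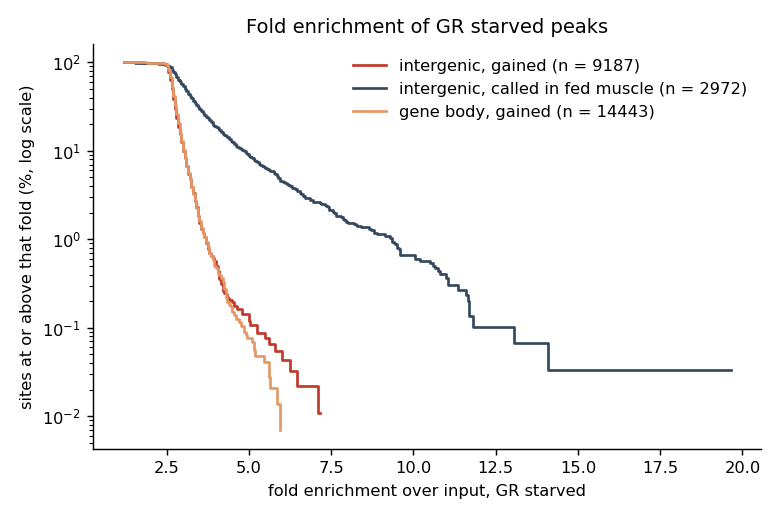
Percentage of GR starved peaks (y axis, log scale) with at least the fold enrichment over input given on the x axis, for gained intergenic sites (n = 9187), intergenic sites called in fed muscle (n = 2972) and gained gene-body sites (n = 14443). The curves of both gained sets fall together and end at folds of 7.15 and 5.97, while the sites called in fed muscle reach 19.7.

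The strongest gained intergenic site had a fold of 7.15 and a q-value of 2.68e-25. It covered 602 bp at chr17:31842025-31842626, 13.5 kb downstream of the TSS of Sik1, which encodes a salt-inducible kinase whose expression follows cAMP and hormone signals. Its midpoint lay in the predicted transcript Gm41564, which the rule did not count as a transcript. The nearest GR fed peak was 13.2 kb away, at the Sik1 promoter, and none of the LSD1 starved, H3K9me1 and H3K9me2 lists had a peak in it.

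Sik1 was the nearest TSS of 16 gained sites in all. Within 60 kb of its start site 11 gained sites were called. Apart from the strongest one, their folds lay between 2.56 and 3.48, and the fold of 3.48 belonged to a site 20.7 kb downstream that overlapped an LSD1 starved peak. GR fed peaks in the same stretch lay 37.2 kb, 2.06 kb and 0.456 kb upstream, with folds of 3.12, 2.86 and 3.22. The strongest gained site was thus 2.22 times as enriched as the strongest fed peak around the gene, within different libraries.

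**Figure D2:**
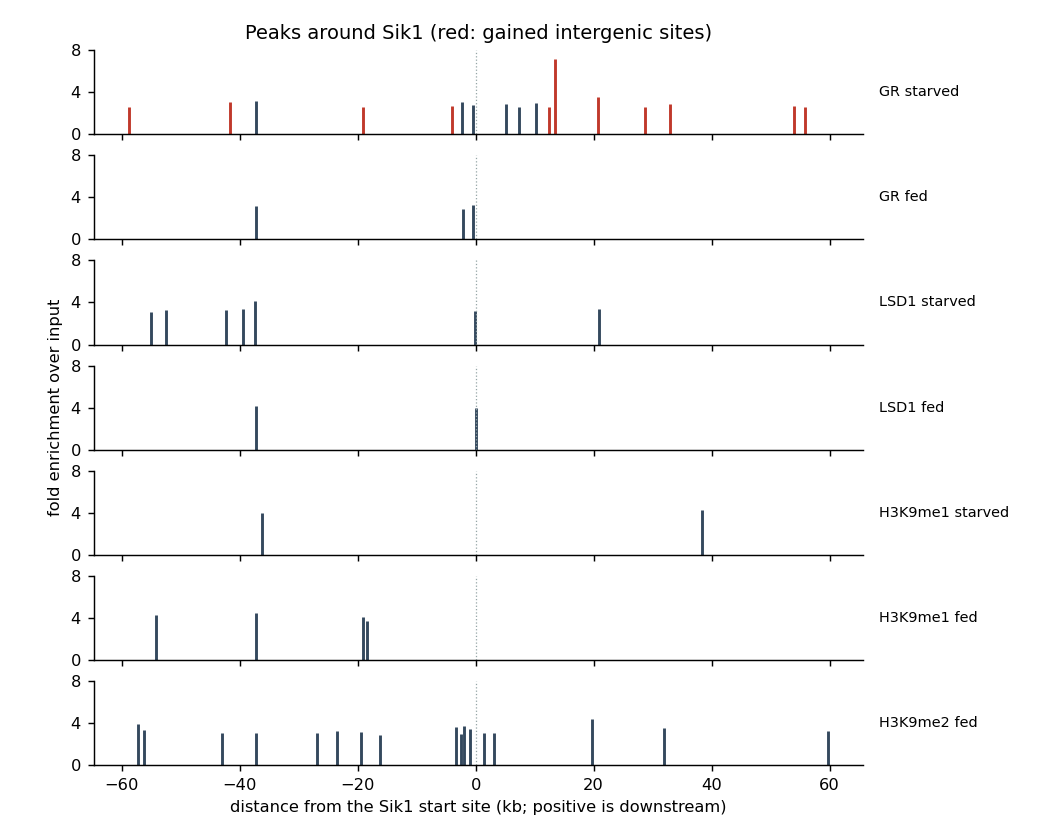
Fold enrichment over input (y axis) of every peak within 60 kb of the Sik1 start site against the distance from it in kb (x axis, positive is downstream), by peak list, with gained intergenic sites in red. The site 13.5 kb downstream reaches 7.15, no GR fed peak lies downstream of the start site, and the H3K9me2 starved list has no peak in the stretch and so no panel.

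Next came a pair of sites at a long non-coding RNA. The gained site at chr12:54243265-54243525 (fold 7.06, q-value 1.93e-22) and another at chr12:54279935-54280726 (fold 5.20) lay 9.78 kb and 46.7 kb downstream of the TSS of 1700104L18Rik. They were 249 kb and 212 kb from the nearest GR fed peak, so that this stretch held no fed GR site over a long distance. The second of them overlapped an LSD1 starved peak with a fold of 3.51 and a q-value of 0.0592.

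The other sites among the 10 with the highest fold lay near genes of varied function. The site at chr4:150685012-150685458 (fold 6.45) was 33.1 kb upstream of Slc45a1, a sugar transporter gene. The site at chr11:94233329-94233755 (fold 6.20) was 9.04 kb downstream of the TSS of Wfikkn2, which encodes a secreted inhibitor of myostatin, and 22.1 kb from the TSS of Tob1, and a GR fed peak with a fold of 3.01 lay 0.965 kb from it. The site at chr17:3218422-3218698 (fold 6.00) lay 104 kb downstream of the TSS of Scaf8, whose product binds the tail of RNA polymerase II, and 108 kb from that of Tiam2. The site at chr3:138906630-138906927 (fold 5.79) lay 165 kb from Tspan5, a tetraspanin gene, and 168 kb from Rap1gds1.

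The site at chr6:72562616-72563817 (fold 5.60, 1202 bp) lay 13.6 kb downstream of the TSS of Capg, an actin-capping protein. The site at chr19:21227244-21227530 (fold 5.47) lay 44.9 kb upstream of Zfand5, a zinc finger protein that stimulates the proteasome. The site at chr13:52153489-52154307 (fold 5.23) lay 57.2 kb from the long non-coding RNA 4921525O09Rik, and a GR fed peak with a fold of 4.70 was 1.21 kb away. Of the 10 sites, 2 thus lay within 1.5 kb of a fed GR peak and 3 lay over 150 kb from one. Among all gained intergenic sites, 5.69% lay within 1584.9 bp of a fed GR peak and 73.1% within 158490 bp. The nearest TSS need not belong to the gene that an enhancer acts on.

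The rule keeps the gained sites out of transcripts, promoters and fed peaks, so their distances are in part set by it. The median distance from the nearest TSS was 28.9 kb (95% CI 27.9 to 30.1). It was 22.8 kb (95% CI 21.5 to 24.5) for the intergenic sites called in fed muscle. Of the gained sites, 24.5% lay under 10 kb from a TSS, 39.9% between 10 and 50 kb, 15.6% between 50 and 100 kb, 17.0% between 100 and 500 kb and 2.98% at 500 kb or more. Of the intergenic sites called in fed muscle 0.471% were 500 kb or more from a TSS. The sites lay upstream of their nearest TSS in 61.3% of cases, against 63.7% in the intergenic sites called in fed muscle. The nearest transcript was an mRNA for 74.9% of the gained sites and a long non-coding RNA for 18.7%.

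The gained sites had a median distance of 44.4 kb (95% CI 42.2 to 46.6) from the nearest GR fed peak. The gained gene-body sites had 19.4 kb (95% CI 18.6 to 20.2). By the rule neither set shares a base with a fed peak, and distances from other intergenic places were not measured. There were 312 gained intergenic sites (3.40%) within 1 kb of a GR fed peak and 2192 (23.9%) within 10 kb. Under a fold of at least 4 the median was 14.2 kb (95% CI 5.70 to 34.7), so the strongest sites were nearer to fed GR sites than the gained sites as a whole. Predicted transcripts held the midpoint of 1522 gained sites (16.6%) and put another 225 (2.45%) in a promoter.

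**Figure D3:**
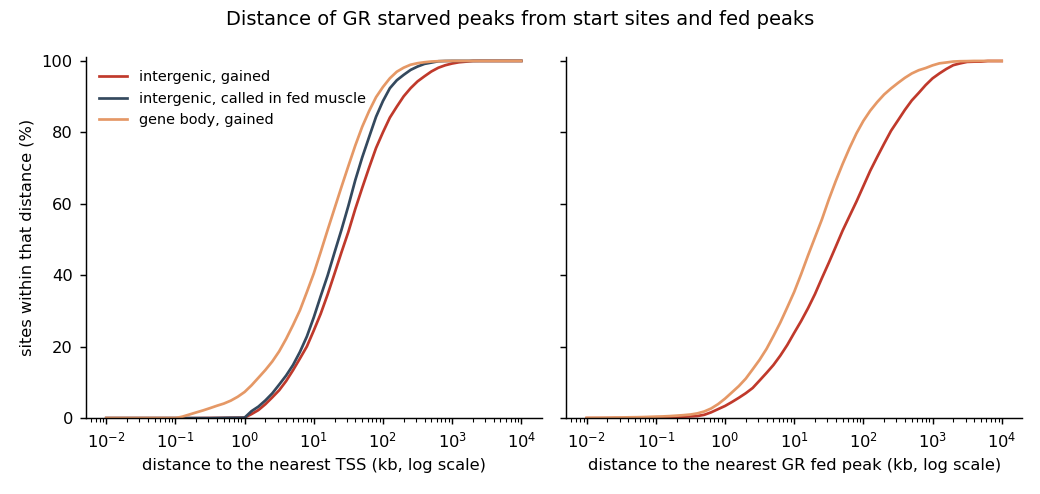
Cumulative percentage of GR starved peaks (y axis) by distance to the nearest TSS (left) and to the nearest GR fed peak (right), in kb on a log scale. Gained intergenic sites lie to the right of the other sets in both panels, with medians of 28.9 kb and 44.4 kb, and the sites called in fed muscle are left out of the right panel because the rule fixes their distance.

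The gained sites were spread over the genome at 2.99 to 5.32 per Mb of each autosome. Chromosome 8 had the most per Mb (5.32, 688 sites), then chromosomes 17 (5.07) and 11 (4.82). Chromosome X had 79 sites or 0.462 per Mb, and Y had 19. X makes up 6.28% of this sequence but held 0.860% of the gained intergenic sites and 0.50% of all GR starved peaks, so its low number was shared by the whole list. The median distance between neighbouring gained sites was 87.7 kb.

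A small part of the sites was clustered. Of the 5711 windows of 100 kb with a gained site, 3955 held 1 and 30 held 10 or more. Those 30 windows held 437 sites (4.76%), of which 124 lay on chromosome 8, 85 on chromosome 5 and 58 each on chromosomes 6 and 17. The window with the most was chr6:114500001-114600000, between Atg7 (an autophagy enzyme) and Hrh1 (a histamine receptor), with 34 gained sites of folds 2.54 to 3.51, 0 GR fed peaks and 28 LSD1 starved peaks. Repeat-masked bases made up 76.0% of that window and, at the median, 85.9% of the sites in it. The window chr5:15600001-15700000, in the Speer4 gene cluster, held 22 gained sites, 66 H3K9me1 starved peaks and 36 H3K9me2 starved peaks. The window chr8:20600001-20700000, near Gm21119, held 19 gained sites with a median of 98.1% repeat-masked bases.

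The clustered sites differed from the others in what lay on them. In the windows with 10 or more, 33.9% of the gained sites were overlapped by an LSD1 starved peak, 24.9% by an H3K9me1 starved peak and 18.5% by an H3K9me2 starved peak. Elsewhere these shares were 5.63%, 2.18% and 1.52%. The median share of repeat-masked bases was 39.4% in the clustered sites and 13.8% elsewhere. The blacklist named in the methods was made for the human genome, and the part of repeats and copied sequence in these clusters was not tested.

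The next question was whether LSD1 and H3K9 methylation were called at the gained sites. These lists took no part in the rule, apart from the LSD1 fed list. LSD1 starved peaks overlapped 641 gained intergenic sites, or 6.98% (95% CI 6.46 to 7.52). The share was 24.4% (95% CI 22.9 to 26.0) in the intergenic sites called in fed muscle, 5.53% (95% CI 5.16 to 5.92) in the gained gene-body sites and 14.6% of all GR starved peaks on the chromosomes. Sites called in fed muscle were in part picked by an LSD1 fed peak, which bears on their share. The gap remained among peaks of 200 to 400 bp, where the shares were 5.96% (95% CI 5.20 to 6.80) and 17.7% (95% CI 15.3 to 20.2), an alternative chosen after seeing the data.

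The LSD1 share rose with the strength of the gained site. It was 4.98% (95% CI 4.49 to 5.50) above a q-value of 0.01, 15.0% (95% CI 13.4 to 16.7) at 0.01 or less and 25.3% (95% CI 17.1 to 35.0; 25 of 99) at 1e-05 or less. At 1e-05 it came close to the 31.1% (95% CI 28.0 to 34.4) of intergenic sites called in fed muscle with the same q-value. The gained gene-body sites at that q-value had a like share, 23.1% (95% CI 16.8 to 30.4; 37 of 160). The rise was not particular to LSD1. Over the same q-value classes H3K9me2 fed peaks met 6.53, 12.7 and 22.2% of the gained intergenic sites. H3K9me2 starved peaks met 1.41, 5.99 and 8.08%, and H3K9me1 fed peaks 0.694, 3.43 and 8.08%. H3K9me1 starved peaks met 2.11, 7.90 and 7.07%. The LSD1 starved list holds another number of peaks than the text of the study gives and may be another version of it. Under a q-value of 0.01 in all lists the share was 5.55%.

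The 5 strongest gained sites with an LSD1 starved peak included the second site of 1700104L18Rik. A site at chr15:58290444-58291782 (fold 5.01, 1339 bp) overlapped an LSD1 starved peak of fold 3.42, 33.1 kb from the TSS of Klhl38, a kelch-like gene of muscle, and 76.2 kb from that of Fbxo32, the ubiquitin ligase atrogin-1. A GR fed peak lay 1.09 kb from it. A site at chr5:114157339-114157535 (fold 4.96) lay 8.08 kb upstream of Acacb, acetyl-CoA carboxylase beta, which restrains fatty acid oxidation, and in a predicted Acacb transcript. The other sites of the 5 lay 109 kb from Macroh2a3 (fold 4.62) and 39.5 kb upstream of Slc25a33, a mitochondrial nucleotide carrier (fold 4.54). In these 5 the q-value of the LSD1 starved peak lay between 0.0334 and 0.0748, so none of them met 0.01.

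H3K9me2, a mark tied to silent chromatin, was called in fed muscle at 713 gained sites, or 7.76% (95% CI 7.22 to 8.33), and in starved muscle at 214, or 2.33% (95% CI 2.03 to 2.66). Among all GR starved peaks on the chromosomes the shares were 13.2% and 1.11%. The H3K9me2 fed share was 16.6% (95% CI 15.2 to 17.9) in the intergenic sites called in fed muscle and 7.14% (95% CI 6.72 to 7.57) in the gained gene-body sites. The H3K9me2 starved share took another order, with 1.48% (95% CI 1.08 to 1.98) in the intergenic sites called in fed muscle and 0.810% (95% CI 0.670 to 0.970) in the gained gene-body sites, both below the gained intergenic sites. Without the windows that held 10 or more sites it was 1.52%.

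H3K9me1 was called at 114 gained sites in fed muscle, or 1.24% (95% CI 1.02 to 1.49), and at 300 in starved muscle, or 3.27% (95% CI 2.91 to 3.65). Among all GR starved peaks on the chromosomes the shares were 1.61% and 2.90%. In the intergenic sites called in fed muscle the shares were 2.32% (95% CI 1.81 to 2.93) and 3.90% (95% CI 3.24 to 4.66), and in the gained gene-body sites 0.845% and 2.17%.

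The lists of the marks differ in length, and the order of the conditions turned when the longer list was cut by fold. Other ways of cutting were not tried for the marks, and peak widths were not made equal. H3K9me2 had 171402 fed and 6624 starved peaks, and H3K9me1 had 14178 fed and 38023 starved peaks. With lists of equal length, highest fold first, H3K9me2 fed peaks met 0.142% of the gained sites, below the 2.33% of the starved list, and H3K9me1 starved peaks met 0.522%, below the 1.24% of the fed list. The direction turned for both marks. For H3K9me2 the starved list held 0.0386 times as many peaks as the fed list but met 0.300 times as many gained sites, whereas for H3K9me1 the ratios were 2.68 and 2.63. The fed and the starved library of each mark also carry different library codes, so condition and code cannot be told apart. The same holds for the GR, LSD1 and input libraries, and so for the rule that chose the gained sites.

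**Figure D4:**
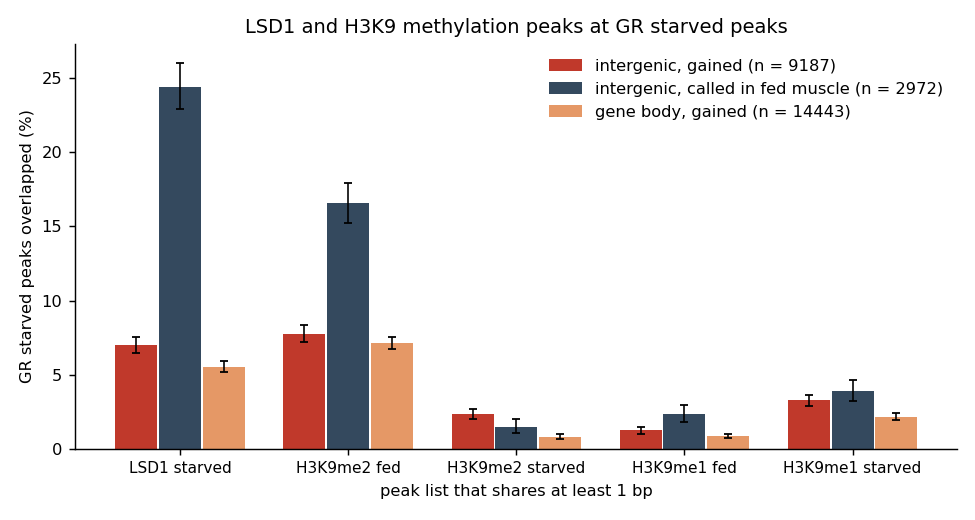
Percentage of GR starved peaks (y axis) that share at least 1 bp with a peak of the LSD1 starved, H3K9me2 or H3K9me1 lists (x axis), for gained intergenic sites, intergenic sites called in fed muscle and gained gene-body sites, with exact 95% intervals. At the gained intergenic sites the bars read 6.98, 7.76, 2.33, 1.24 and 3.27% from left to right, and sites called in fed muscle have the highest bar in every list but H3K9me2 starved.

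Most gained sites, 7715 or 84.0%, met none of these 5 lists, against 74.4% of all GR starved peaks on the chromosomes. A count of 124 (1.35%) met 3 or more, close to the 1.18% of all GR starved peaks. Of the 1472 sites that met at least 1 list, 1156 met exactly 1. Sites with an H3K9me2 starved, an H3K9me1 fed or an H3K9me1 starved peak often met another list. Of the 214 sites with an H3K9me2 starved peak, 50.5% had an LSD1 starved peak, 45.3% an H3K9me1 starved peak and 33.6% an H3K9me2 fed peak, and their sequence was repeat-masked over a median of 56.4%, against 13.5% in the sites that met no other list. Of the 114 sites with an H3K9me1 fed peak, 46.5% had an LSD1 starved peak, 42.1% an H3K9me1 starved peak and 39.5% an H3K9me2 fed peak. Of the 300 sites with an H3K9me1 starved peak, 41.3% had an LSD1 starved peak and 27.7% an H3K9me2 fed peak. Of the 641 sites with an LSD1 starved peak, 19.7% had an H3K9me2 fed peak and 19.3% an H3K9me1 starved peak.

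The 5 strongest gained sites with an H3K9me2 fed or H3K9me1 starved peak all had the former. They included the sites near Wfikkn2, Tspan5 and 4921525O09Rik, where the H3K9me2 fed peak had a fold of 3.17, 2.83 and 3.89. A site at chr11:51889791-51890557 (fold 4.75) lay 32.5 kb upstream of Jade2, which encodes a PHD finger protein described as a ubiquitin ligase for LSD1. A site at chr4:9084641-9085090 (fold 4.51) lay 184 kb upstream of Clvs1 and shared its first bases with an H3K9me2 fed peak of fold 6.95 and q-value 6.77e-16. That site was repeat-masked over 68.4% of its bases.

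GRE-like sequences, with at most 1 mismatch in the 12 fixed bases, were rare in the gained sites. They were present in 28 of 9187, or 0.305% (95% CI 0.203 to 0.440), against 0.158% (95% CI 0.106 to 0.227) of equally long sequences 5 kb to either side. The intergenic sites called in fed muscle held one in 2.56% (95% CI 2.02 to 3.19), with 0.370% in their flanks, the gained gene-body sites in 0.284% with 0.239%, and all GR starved peaks on the chromosomes in 0.712%. The share was 0.545% (95% CI 0.262 to 1.00) at a q-value of 0.01 or less and 1 of 99 (95% CI 0.0256 to 5.50%) at 1e-05 or less. At that q-value the intergenic sites called in fed muscle had one in 5.35% (95% CI 3.91 to 7.11) and the gained gene-body sites in 3.12% (95% CI 1.02 to 7.14). With 99 gained sites the interval reaches both of these shares. Single half-sites were in 23.3% (95% CI 22.4 to 24.1) of the gained sites and in 24.3% (95% CI 23.7 to 24.9) of their flanks.

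Of the sites with a GRE without mismatch, the one near 1700056E22Rik had a fold of 3.56 and a q-value of 4.08e-05 and lay 6.98 kb from a GR fed peak. The one near Tspan3 had a fold of 2.60 and a q-value of 0.0555. Neither met an LSD1 starved, H3K9me1 or H3K9me2 peak. The best site in the 10 strongest gained sites had 2 mismatches, in those near Scaf8, Tspan5 and Zfand5.

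AP-1 sequences, which Fos and Jun dimers bind, rose in frequency with the strength of the site. They were in 11.1% of the gained sites (95% CI 10.5 to 11.8), against 9.19% of the flanks (95% CI 8.77 to 9.61) and 12.3% of all GR starved peaks on the chromosomes. The share was 10.0% above a q-value of 0.01, 15.5% (95% CI 13.9 to 17.2) at 0.01 or less with 8.80% in the flanks, and 36.4% (95% CI 26.9 to 46.6; 36 of 99) at 1e-05 or less, with 10.6% (95% CI 6.69 to 15.8) in the flanks. At that q-value the ratio to the flanks was 3.43 in the gained intergenic sites. The intergenic sites called in fed muscle had AP-1 in 25.6% (95% CI 22.7 to 28.8) and 16.6% of flanks, and the gained gene-body sites in 28.1% (95% CI 21.3 to 35.8) and 10.3%. The share was highest in the gained intergenic sites among these 3 sets, and the differences between the sets were not tested.

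C/EBP and FOXO sequences were more frequent than in the flanks among the strongest sites but not over all gained sites, a direction that turned in sites whose GC content was near that of their flanks. At a q-value of 1e-05 or less C/EBP was in 27.3% (95% CI 18.8 to 37.1) with 12.1% (95% CI 7.92 to 17.5) in the flanks, and FOXO in 12.1% (95% CI 6.42 to 20.2) with 4.55% (95% CI 2.10 to 8.45), where the intervals overlap. At that q-value the gained gene-body sites had C/EBP in 15.6% and 12.5% of flanks, and FOXO in 12.5% and 3.75%. The intergenic sites called in fed muscle had C/EBP in 23.2% and 19.3% of flanks, and FOXO in 11.2% and 7.23%. Over all gained intergenic sites C/EBP was in 11.8% and 12.4% of flanks, and FOXO in 3.83% and 4.10%. The intervals of these sites and their flanks overlap for both motifs, at 11.1 to 12.5 and 11.9 to 12.8 for C/EBP. For FOXO they are 3.45 to 4.24 and 3.82 to 4.40.

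The myogenic E-box, which MyoD-type factors bind, was in 20.6% of the gained sites (95% CI 19.7 to 21.4) and 13.3% of their flanks, against 40.1% and 21.8% in the intergenic sites called in fed muscle and 26.5% in all GR starved peaks on the chromosomes. The MEF2 motif (myocyte enhancer factor 2) was in 2.00% (95% CI 1.73 to 2.31) of the gained sites, below the 5.03% (95% CI 4.72 to 5.36) of their flanks. In the intergenic sites called in fed muscle it was in 8.88% (95% CI 7.88 to 9.96), above their flanks at 6.58%. In all GR starved peaks on the chromosomes it was in 3.66%. The gained gene-body sites were like the gained intergenic sites, with MEF2 in 2.40% and 4.79% of flanks and the E-box in 23.6% and 16.2%. Among peaks of 200 to 400 bp, MEF2 was in 1.70% of the gained intergenic sites and 6.65% of those called in fed muscle. The E-box was in 20.8% and 34.7% of these.

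Base composition moved with these shares. The median GC content was 50.7% in the gained sites and 45.1% in their flanks. Among the 2314 gained sites within 3 percentage points of the mean GC of their own flanks, chosen after seeing the data, the MEF2 share was 2.85% (95% CI 2.21 to 3.61) and 3.48% (95% CI 2.97 to 4.05) in the flanks, where the intervals overlap. In the same sites the E-box remained above the flanks, at 21.7% and 17.4%, and so did AP-1, at 13.1% (95% CI 11.8 to 14.6) and 9.57% (95% CI 8.74 to 10.5). FOXO and C/EBP turned in direction there. FOXO was in 5.27% (95% CI 4.40 to 6.26) of these sites and 3.76% (95% CI 3.23 to 4.35) of the flanks, and C/EBP in 13.9% (95% CI 12.5 to 15.4) and 12.1% (95% CI 11.2 to 13.1). The intervals of C/EBP overlap here, and over all gained sites those of both motifs did.

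**Figure D5:**
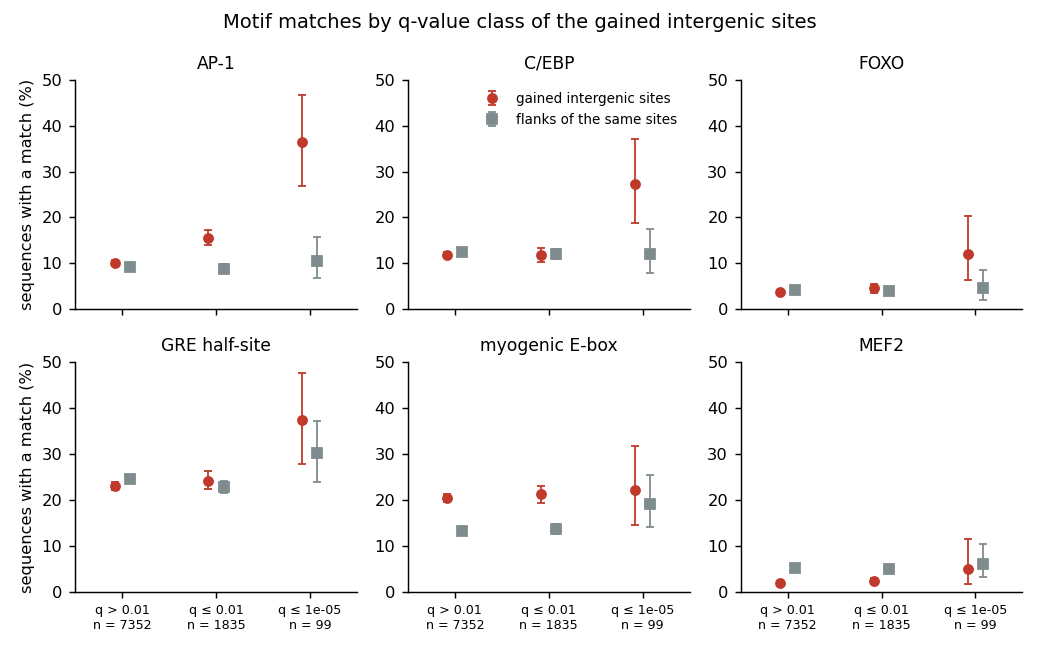
Percentage of sequences with a motif match (y axis) in gained intergenic sites (red) and in their flanks (grey) by q-value class of the site (x axis), for 6 motifs, with exact 95% intervals. AP-1 climbs from 10.0 to 15.5 to 36.4% while its flanks stay between 8.80 and 10.6%, and the E-box stays between 20.4 and 22.2%.

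Repeats were more frequent in the gained intergenic sites than in other GR peaks and less frequent than in the sequence around them. The median masked share was 14.5% (95% CI 13.7 to 15.3) in the gained sites and 28.5% (95% CI 27.8 to 29.3) in their flanks. At least 50% of the bases were repeat-masked in 25.4% of them, against 3.30% of the intergenic sites called in fed muscle, 10.3% of the gained gene-body sites and 10.8% of all GR starved peaks on the chromosomes. The share was 25.4% above and 25.2% at or below a q-value of 0.01, and 19.2% of the 99 sites at 1e-05 or less. CpG-island-like sequence (at least 200 bp, a GC content of at least 50% and an observed-to-expected CpG ratio of at least 0.6) was in 1.56% of the gained intergenic sites and 39.5% of the gained promoter sites. Runs of CA repeats (CACACACACACA or its reverse complement) were in 7.31% of the gained sites and 5.24% of the flanks.

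By nearest TSS, the gained sites went to 5391 genes, or 20.6% of the 26180 annotated genes. Of these genes 3557 had 1 gained site and 221 had 5 or more. A GR fed peak had the same nearest gene in 46.2% of the 5391, against 29.1% of all annotated genes, and 40.1% of the 5391 had neither a GR fed nor an LSD1 fed peak. The latter share was not computed over all annotated genes, so it cannot be read as high or low. The lists that follow were chosen with earlier results known. Genes with much intergenic sequence around them have more room for such a site, which was not tested. The share of each list stands beside the 20.6% of all genes. Of the sites named below with their fold, those of 2.88 or less had q-values above 0.01. The site of the clock gene Tef (0.00604) was the exception, and the highest q-value was 0.0761. Olfactory receptor, vomeronasal receptor and protocadherin genes aside, every list had GR fed peaks at a larger share than the 29.1% of all genes. In these lists each gene with a gained site also had a GR fed peak, except 1 insulin pathway gene and 1 myogenic factor.

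Classic GR targets, the genes that glucocorticoids induce in many tissues, had a gained site in 19 of 26 cases, against the 20.6% of all genes, and all 19 also had a GR fed peak. The strongest were 81.8 kb upstream of Klf9, a transcription factor gene (fold 4.01, 1.73 kb from a GR fed peak of fold 10.8), 22.4 kb downstream of the TSS of Dusp1, a MAP kinase phosphatase (fold 3.72), 51.1 kb downstream of that of Rgs2, a G protein regulator (fold 3.51), and 91.9 kb upstream of Sgk1, a kinase of ion transport and growth (fold 3.20). The site of Klf9 was repeat-masked over 84.3% of its bases.

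Muscle atrophy and proteasome genes had one in 10 of 19 cases (52.6%, against the 20.6% of all genes), and 15 of the 19 had a GR fed peak. Sites lay 6.37 kb downstream of the TSS of Ubb, a polyubiquitin gene (fold 3.75), 3.94 kb upstream of Fbxo32 (fold 3.44) and 7.27 kb upstream of Nedd4, a ubiquitin ligase (fold 2.89). These 3 lay 0.593 to 1.03 kb from a GR fed peak. The site of Ubb was repeat-masked over 71.1% of its bases. Autophagy genes had one in 9 of 20 cases (45%), and 16 of the 20 had a GR fed peak. Of their 46 gained sites, 32 had Atg7 as the nearest TSS. The repeat-rich window of chromosome 6 held sites of both Atg7 and Hrh1. Apart from Atg7 the strongest were 98.6 kb from Foxo3 (fold 2.82), 10.3 kb upstream of the protease gene Ctsl (fold 2.78) and 24.9 kb from Bnip3, a mitophagy receptor (fold 2.74). The site of Bnip3 was repeat-masked over 60% of its bases.

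Genes of the insulin, IGF1, mTORC1 and myostatin pathways had a gained site in 13 of 23 cases (56.5%). They included Pik3r1, the regulatory subunit of PI3-kinase (77.6 kb upstream, fold 3.00), the myostatin effector Smad3 (fold 2.81), the translation repressor gene Eif4ebp1 (fold 2.76) and the insulin receptor gene Insr, 5.34 kb upstream (fold 2.76). The sites of Eif4ebp1 and Insr had q-values of 0.0181 and 0.0255. That of Eif4ebp1 covered 110 bp and was repeat-masked over 100% of its bases. Fuel metabolism genes had one in 5 of 24 cases, at 20.8% close to all genes. Beside Acacb these were Pdk4, which blocks pyruvate oxidation (68.5 kb upstream, fold 2.81), the lipase gene Lpl (fold 2.59), the fatty acid binder Fabp3 (fold 2.55) and Ppargc1b, a coactivator gene.

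Myogenic transcription factors had a gained site in 11 of 20 cases (55%, against the 20.6% of all genes). Tead1 (22.9 kb upstream, fold 3.66) was the strongest, followed by Mef2a (fold 2.79), Pax3 (2.03 kb upstream, fold 2.72) and Six2 (fold 2.69). The site of Pax3, a factor of muscle precursors, was 338 kb from any GR fed peak. The midpoint of the Six2 site lay in a predicted Six2 transcript. Sarcomere genes had one in 10 of 25 cases (40%). They were led by the myosin-binding Mybpc1 (26.6 kb upstream, fold 3.67) and the intermediate filament gene Des (12.8 kb upstream, fold 3.55). Skeletal actin Acta1 (fold 2.88) and tropomyosin Tpm1 (fold 2.82) followed. The site of Tpm1 was repeat-masked over 100% of its bases.

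Calcium handling and excitation-contraction genes had a gained site in 5 of 24 cases (20.8%), also close to the 20.6% of all genes, led by the sodium channel gene Scn4a (9.69 kb upstream, fold 2.85) and the calsequestrin gene Casq2 (fold 2.73). Sarcolipin (Sln, fold 2.71) and Camk2b (fold 2.54) followed, and the site of Camk2b overlapped an LSD1 starved peak. The midpoint of the Scn4a site lay in a predicted Scn4a transcript. Circadian clock genes had one in 6 of 19 (31.6%). They were led by the PAR bZIP factors Hlf (30.3 kb upstream, fold 3.06) and Tef (fold 2.84), then Arntl (4.69 kb upstream, fold 2.82) and Bhlhe41 (fold 2.81). The site of Hlf was repeat-masked over 54.8% of its bases. The midpoint of the Arntl site lay in a predicted Arntl transcript. Neuromuscular junction genes had one in 6 of 17 (35.3%). They were led by Rapsn, which clusters acetylcholine receptors (5.08 kb upstream, fold 3.01), then Hdac4 (fold 2.75), Utrn and Gadd45a (fold 2.74 each).

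Genes of H3K9 methylation enzymes and GR coregulators had a gained site in 5 of 20 cases (25%, against the 20.6% of all genes), among them the acetyltransferase gene Ep300 (fold 3.03), the corepressor gene Rcor1, whose product is a partner of LSD1 (3.64 kb upstream, fold 2.58), and the coactivator gene Ncoa1 (fold 2.41). Another was Nr3c1, the gene of GR itself, on chromosome 18. Genes of the sense of smell, fixed as a contrast, had fewer. Olfactory receptor genes had a gained site in 65 of 1125 cases (5.78%), 62 of them without a GR fed peak, and vomeronasal receptor genes in 32 of 357 (8.96%). The strongest of these were 15.4 kb from Olfr410 (fold 3.25, with an LSD1 starved and an H3K9me2 fed peak on it), at Olfr449 (fold 3.18) and at Vmn1r217 (fold 3.08). The sites of Olfr410 and Olfr449 were repeat-masked over 79.1% and 100% of their bases. None of the 58 clustered protocadherin genes had a gained site.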

How the data were processed

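The authors sequenced chromatin immunoprecipitated from nuclei of skeletal muscle of fed and starved mice. Per the methods of the study, single-end reads were mapped to mm10 with Bowtie, uniquely mapped reads were kept, reads in blacklisted regions of a human build were dropped, and broad peaks were called per library with MACS2 against input. The deposited peak names carry the name of Bowtie2. For every peak the 8 deposited lists hold a ratio, the fold enrichment over input. They also hold the p-value and the q-value, each as −log10, and a score of the authors' caller, which was left aside. The least strict q-values were near 0.1, above the limit of 0.01 that the methods name. The depth of the libraries is unknown since no read counts were used, and input entered through the peak calling alone.

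Groups were taken from the labels. Gained intergenic sites were found with 45756 curated RefSeq transcripts of GRCm38, in Python 3.11.15 with numpy 2.4.6, scipy 1.17.1 and pysam 0.24.0, and an overlap was at least 1 shared bp. Each site was assigned to the nearest TSS. Motifs were searched on both strands in whole sites and in equally long sequence 5 kb to each side. The code was tested on simulated data with known answers. The members, gene lists and motifs were chosen with earlier results of these data known. Sites named were, outside chromosome 18, the 10 with the highest fold, those with a GRE without mismatch, the 5 strongest with an LSD1 starved peak and with an H3K9me2 fed or H3K9me1 starved peak, the 3 densest windows of 100 kb, the 4 strongest per gene list within 100 kb of a TSS, and sites at the edges of the rule. The alternatives changed q-value, fold, chromosomes, distance from fed peaks, overlap, gene models, promoter window, merging, list length, repeats and mismatches. Overlap with H3K9me1 fed and H3K9me2 starved peaks, and motifs other than the GRE, were not recomputed under them beyond the classes given. Some members of the gene lists are counted but not reported by name here.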

Additional observations from a re-analysis of the deposited data

Results flagged for a closer look

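The shares of gained intergenic sites overlapped by the 2 H3K9 marks moved in opposite directions between the fed and the starved lists. From fed to starved muscle, the H3K9me1 share rose by 2.02 percentage points (1.24% to 3.27%) and the H3K9me2 share fell by 5.43 percentage points (7.76% to 2.33%). With 1 library behind each list, this contrast of the marks was not tested. Both directions turned when the longer list of a mark was cut by fold to the same number of peaks. The fed and starved libraries of a mark carry different library codes, so that code and condition cannot be told apart.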

How the results depend on the processing

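No paired analysis was possible because each group had 1 library, and no replicate could be left out. Read depth is unknown, so a site without a fed peak was not shown to lack GR in fed muscle. Of the 84 comparisons of counts, shares and gene numbers with an alternative, 42 stayed within 1.5 times the count or inside the 95% interval of the share. Restriction to autosomes and X, a wider promoter, predicted transcripts, merging and a distance of 1 kb from fed peaks moved none of these. A q-value of 0.01 in the GR starved list left 1835 sites and 1439 genes, with shares of 0.545% for GRE-like sequences, 15.0% for LSD1 starved, 12.7% for H3K9me2 fed and 7.90% for H3K9me1 starved peaks. With 0.01 in all lists these were 2126, 1615, 0.470%, 5.55%, 5.55% and 4.61%. With a fold of at least 4 they were 46, 44, 2.17%, 21.7%, 15.2% and 0% (0 of 46, exact upper limit 7.71%). With the list shortened to the length of the GR fed list they were 2033, 1577, 0.492%, 14.3%, 12.5% and 7.62%. When an overlap had to span 50% of the shorter peak, the 3 overlap shares were 5.85%, 6.30% and 2.74%. Without sites that were at least 50% repeat-masked, LSD1 starved fell to 6.07% and H3K9me1 starved to 2.68%. GRE-like sequences were in 0.0218% with no mismatch and 2.80% with 2. Added after seeing the data, a q-value of 1e-05 gave 1.01%, 25.3%, 22.2% and 7.07% in the same order. Leaving out the windows with 10 or more sites gave 5.63% for LSD1 starved and 2.18% for H3K9me1 starved peaks. Peaks of 200 to 400 bp gave 5.96%, 6.83% and 2.36% for the 3 overlap shares. Equal list lengths gave 0.142% for H3K9me2 fed and 0.522% for H3K9me1 starved peaks. Stricter lists hold fewer peaks by construction, and the cause of the other shifts was not tested. The median distance from a TSS fell to 17.7 kb with predicted transcripts.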
